A study of Mus musculus with 5 samples.

Results

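The clustered protocadherins are cadherin-like cell surface proteins encoded by a run of neighbouring genes in the alpha, beta and gamma clusters. Members were chosen by gene symbol alone, as every gene named as an alpha, beta or gamma protocadherin. The rule used no measured value, although earlier results of these data were known when the choice was made. They came to 58 of the 55385 genes in the count tables, with 14 genes in the alpha cluster, 22 in the beta cluster and 22 in the gamma cluster.

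In the alpha and gamma clusters each gene has its own first exon and promoter, and this exon is spliced to constant exons that all genes of the cluster share, whereas beta genes consist of a single coding exon. Neurons switch on a different mix of the alternate genes through promoter choice that involves CTCF and cohesin, while the C-type genes at the end of the alpha and gamma clusters are used more broadly. The proteins bind copies of themselves on neighbouring membranes, and they are known for self-recognition of dendrites and axons and for neuron survival.

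Total RNA of the hippocampus was sequenced from male C57/bl6 mice that were 3 months old. One group was the control. The other groups received kainic acid, a glutamate receptor agonist that causes seizures, at 20 mg/kg by intraperitoneal injection. They were examined 1 h, 4 h and 8 h after the onset of seizures. The control, 1 h and 8 h groups had 1 library each and the 4 h group had 2. The control is labelled only as control, with no vehicle injection named for it, so the injection and the kainic acid cannot be told apart. All comparisons with the control share this 1 library.

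The control library held 19100374 reads assigned to genes, the 1 h library 17744508, 4 h libraries 1 and 2 18250114 and 19109204, and the 8 h library 16612225. The members held 10690, 10044, 8725, 9007 and 9967 of these, which was 0.0560%, 0.0566%, 0.0478%, 0.0471% and 0.0600% of the gene counts. Levels are given as CPM, read counts scaled to a common library size, after correction by the trimmed mean of M-values (TMM), and intervals are exact 95% intervals that cover counting error only. The labels do not say that the 4 h libraries came from separate animals, so p-values measure the spread between these libraries, which may be technical. The single libraries were assumed to vary like the 4 h pair.

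At 4 h the alpha and beta clusters were below the control in both libraries, whereas the mean gamma ratio was above 1 with TMM scaling (1.05) and below 1 with library size alone (0.958). The summed level of the alpha cluster was 87.2 CPM in the control library, followed by 89.9 (1 h), 73.5 with 73.1 (4 h) and 89.0 (8 h). For the beta cluster the sum was 191 CPM in the control library, followed by 197 (1 h), 161 with 145 (4 h) and 190 (8 h). The gamma cluster summed to 259 CPM in the control library, followed by 284 (1 h), 283 with 258 (4 h) and 289 (8 h). Both 4 h libraries were thus the lowest of the 5 for alpha and for beta, and for gamma the control and 4 h library 2 were the lowest.

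Against the control, the alpha sum had a ratio of 0.843 (interval 0.783 to 0.907) in 4 h library 1 and 0.839 (0.781 to 0.901) in 4 h library 2. The beta ratios were 0.846 (0.805 to 0.889) and 0.759 (0.722 to 0.797). The gamma ratios were 1.09 (1.05 to 1.14) and 0.997 (0.959 to 1.04), so the 4 h libraries differed from each other for beta and for gamma by more than counting error. In bulk tissue, fewer cells that express a gene and less RNA per cell cannot be told apart. At 1 h the ratios stood at 1.03 for alpha and 1.03 for beta, with intervals that included 1, and 1.098 (1.06 to 1.14) for gamma. At 8 h they were 1.02 for alpha, 0.996 for beta and 1.12 (1.07 to 1.16) for gamma. The sums were not tested.

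The scaling and the most abundant gene set the direction of the smaller differences. With library size alone in place of TMM, the mean gamma ratio at 4 h moved from 1.05 to 0.958, and the 1 h ratios of 1.03 moved to 0.981 for alpha and 0.982 for beta, while alpha at 4 h moved from 0.841 to 0.771 and beta at 4 h from 0.802 to 0.735. That scaling shifted the median log2 fold change of all genes at 4 h from 0.01 to -0.11. Without Pcdhgc5, the most abundant gamma gene, the mean gamma ratio at 4 h was 0.979. Without Pcdhac2 the alpha ratio was 0.800 at 4 h and 1.21 at 8 h.

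**Figure D1:**
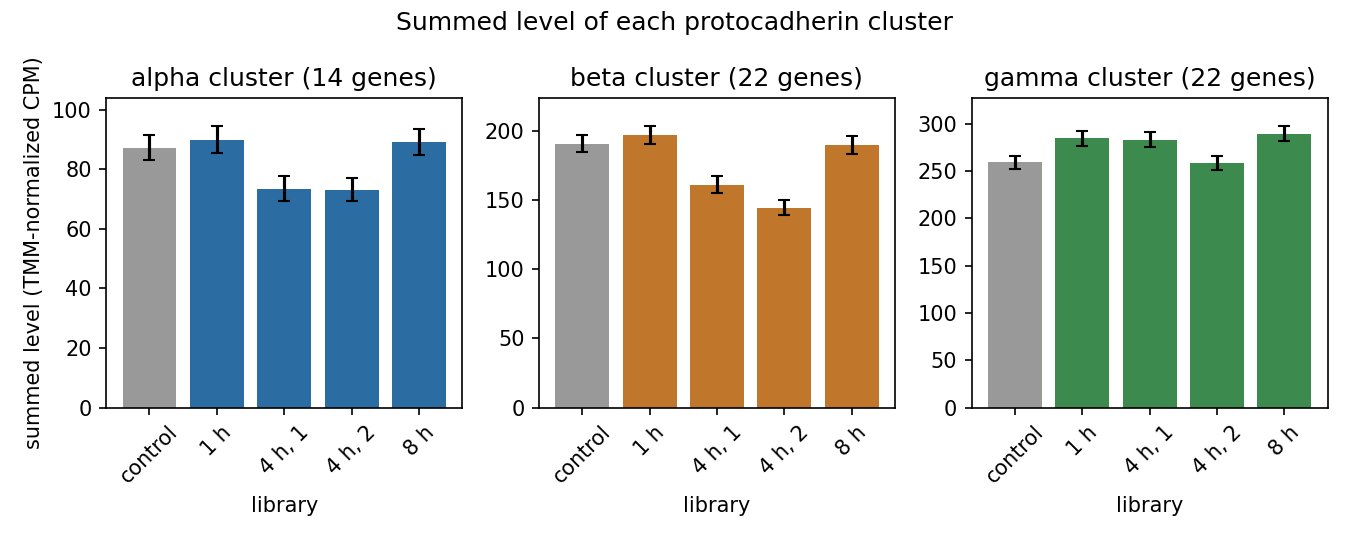
Summed TMM-normalized CPM of the alpha, beta and gamma genes in each library (gray, control; bars start at 0; error bars, exact 95% Poisson intervals). The alpha and beta sums in both 4 h libraries, 73.5 and 73.1 for alpha and 161 and 145 for beta, lie below the control at 87.2 and 191, and the gamma sums range from 258 to 289 (with library size alone the mean gamma ratio at 4 h is 0.958).

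No single member passed the test. Of the 58 members, 56 passed the filter on low counts, with 13 alpha, 21 beta and 22 gamma genes among them. Pcdha4 and Pcdhb1 did not pass. Pcdha4 had 5, 0, 3, 7 and 2 counts in the control library and then in order of time, and Pcdhb1 had 5, 1, 3, 4 and 1. For Pcdha4 the interval at 1 h reached 0.210 CPM and that of the control ran from 0.0816 to 0.586 CPM. Counts this low did not separate the libraries.

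With the edgeR quasi-likelihood test and p-values adjusted by Benjamini-Hochberg over 19768 genes, 0 members were called at 1 h, 0 at 4 h and 0 at 8 h, where 0%, 0.00506% and 0% of all genes were called. The 1 gene called at 4 h was ETV3L, which is not a protocadherin and is named here after its value was seen. At an unadjusted p under 0.05 the members again numbered 0 at each time, against 2.42% of all genes at 1 h, 11.6% at 4 h and 4.51% at 8 h. In other edgeR settings, Pcdhb20 at 4 h was under 0.05 with library size alone (1 of 56 members, against 2710 of 19768 genes). With no filter, Pcdha1 at 1 h (1 of 58 members, against 1006 of 32732 genes) and both genes at 4 h (2 of 58, against 3651 of 32732) were under 0.05. DESeq2 called 56, 238 and 33 genes at the 3 times and limma-voom 0, 0 and 0, with 0 members among them in each case. DESeq2 gave no adjusted p for 11 members at 1 h, 3 at 4 h and 3 at 8 h, Pcdha1 among them, so these could not be called. With so few libraries, a p that misses the threshold does not show that a level was the same.

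The direction of the fitted differences leaned to lower values at 4 h. Lower than the control at 4 h were 13 of 13 alpha, 19 of 21 beta and 14 of 22 gamma genes, against 49.2% of all genes. In both 4 h libraries separately, 9 of 13 alpha, 19 of 21 beta and 11 of 22 gamma genes were below the control, where 38.3% of all genes were. Both 4 h libraries were above the control for 0 alpha, 2 beta and 5 gamma genes, and for 38.1% of all genes. The median log2 fold change at 4 h was -0.35 for alpha, -0.33 for beta and -0.12 for gamma, beside 0.01 for all genes. Since neighbouring members share a locus and a control library, these counts are a description and carry no test.

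No such leaning to lower values was seen at 1 h or 8 h. At 1 h the fitted level was lower for 4 of 13 alpha, 6 of 21 beta and 8 of 22 gamma genes (50.9% of all genes), with medians of 0.10, 0.11 and 0.06, the last of which was -0.01 with library size alone. At 8 h it was lower for 5, 11 and 7 genes (48.9% of all genes), with medians of 0.21, -0.01 and 0.15 (0.01 for beta with library size alone). The same control library stands behind all 3 times.

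Differences were small for most members. At least 1.5-fold lower were 1 of 56 members at 1 h (8.01% of all genes), 7 at 4 h (10%) and 1 at 8 h (8.11%). At least 1.5-fold higher were 2 members at 1 h (9.65%), 0 at 4 h (16.3%) and 4 at 8 h (12.7%). All 4 kainic acid libraries were below the control for 13 of the 56 members (20.6% of all genes) and above it for 4 (20.6%).

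The log2 ratio between the 4 h libraries varied less over the members than over genes in general, while its median was larger for members. With 0.1 CPM added to each value, it had an SD of 0.313 over the 56 members and 0.663 over all 19768 genes tested. The SD was 0.498 for alpha, 0.209 for beta and 0.260 for gamma. Medians were 0.108 for members and 0.011 for all genes, and 0 members but 1984 genes were at least 2-fold apart. Without the added 0.1 CPM, Pcdha1, at 0.356 and 0.740 CPM, was over 2-fold apart. Members had a median of 143.5 counts in the control, and genes of lower counts differ more between libraries by counting error alone. Whether this accounts for the smaller SD of the members was not tested.

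**Figure D2:**
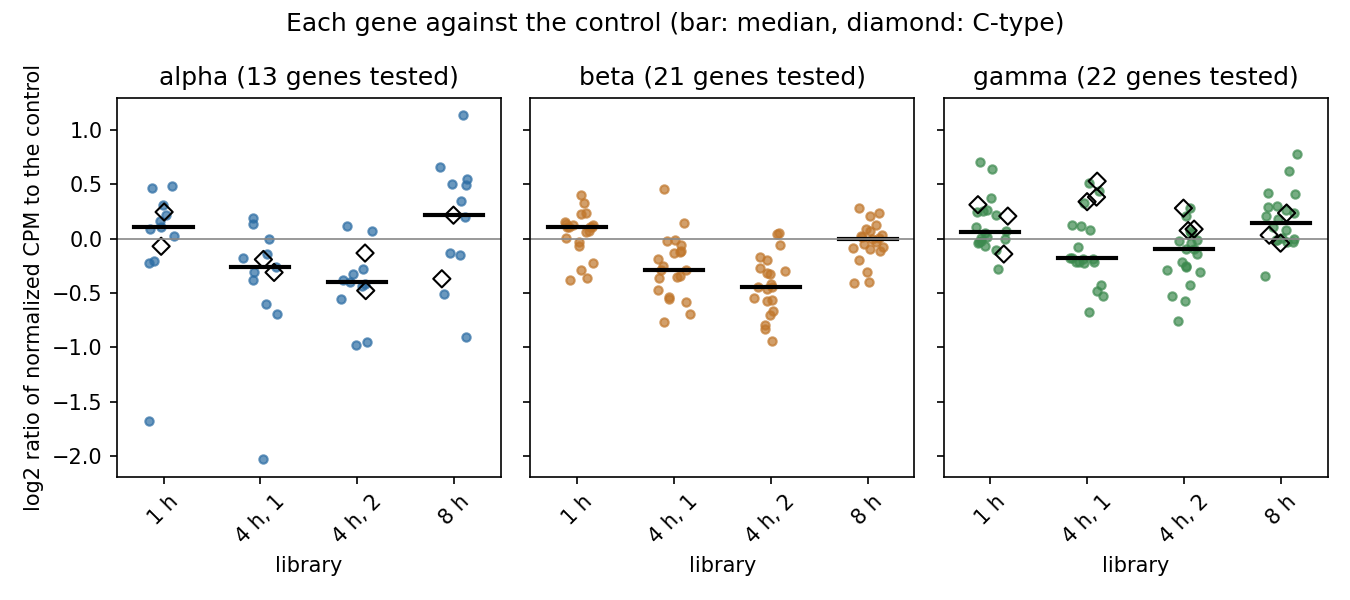
Log2 ratio of the normalized CPM of each tested gene to the control in each kainic acid library (points, genes; diamonds, C-type genes; bars, medians; 13 alpha, 21 beta and 22 gamma genes). In both 4 h libraries most alpha and beta genes lie below 0, while the 3 gamma C-type genes lie above 0.

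Among the alternate alpha genes, Pcdha12 and the gene listed as Pcdha11 with identifier ENSMUSG00000102206.5 were the most abundant. Pcdha12 was at 7.18 CPM in the control library, followed by 8.02 (1 h), 5.82 with 5.45 (4 h) and 6.56 (8 h). Both 4 h libraries were the lowest of the 5, with a log2 fold change at 4 h of -0.35 ± 0.32 (SE, adjusted p = 0.696, Benjamini-Hochberg, edgeR quasi-likelihood test). Pcdha11 (ENSMUSG00000102206.5) was at 6.63 CPM in the control library, followed by 7.05 (1 h), 5.11 with 4.92 (4 h) and 9.36 (8 h). It was thus lowest at 4 h and highest at 8 h, with log2 fold changes of -0.40 ± 0.32 (4 h) and 0.49 ± 0.37 (8 h, adjusted p = 0.651 and 1.00, Benjamini-Hochberg, edgeR quasi-likelihood test).

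The symbol Pcdha11 stood on 2 rows, and no row was named Pcdha10. The other row, ENSMUSG00000007440.10, had 67 counts in the control library, followed by 83 (1 h), 35 with 69 (4 h) and 93 (8 h). RefSeq places Pcdha10 where this second row lies in the annotation, so which of the genes its counts belong to is uncertain. Summed over the 12 alternate alpha genes, the ratio to the control was 0.819 and 0.793 in the 4 h libraries and 1.21 (1.11 to 1.33) at 8 h.

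Pcdha1, the first gene of the alpha cluster, had the lowest fitted log2 fold change of the tested members at 4 h with both libraries, whereas without 4 h library 1 it was at -0.88 and Pcdhb3 at -0.91. Its level was 1.46 CPM in the control library, followed by 0.455 (1 h), 0.356 with 0.740 (4 h) and 1.03 (8 h). All 4 kainic acid libraries were below the control, but the counts were only 29, 8, 6, 14 and 18. The log2 fold change was -1.24 ± 0.67 (SE) at 4 h, with an adjusted p of 0.487 (Benjamini-Hochberg) in the edgeR quasi-likelihood test, and it was -1.75 without 4 h library 2. The counting intervals of the ratio were 0.0830 to 0.599 and 0.248 to 0.993 in 4 h libraries 1 and 2.

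The beta genes encode proteins without the shared constant domain. The highest mean levels were those of Pcdhb17, Pcdhb16, Pcdhb19 and Pcdhb14. Pcdhb17 was at 18.3 CPM in the control library, followed by 20.4 (1 h), 16.9 with 13.3 (4 h) and 18.7 (8 h). Pcdhb16 was at 16.3 CPM in the control library, followed by 17.1 (1 h), 16.2 with 14.3 (4 h) and 18.8 (8 h). In both genes the 4 h libraries were the lowest, by little for Pcdhb16 in library 1. Pcdhb19 was at 15.5 CPM in the control library, followed by 18.2 (1 h), 14.3 with 12.5 (4 h) and 16.3 (8 h). Pcdhb14 was at 14.9 CPM in the control library, followed by 15.99 (1 h), 14.3 with 13.2 (4 h) and 15.0 (8 h). All of these abundant beta genes were highest at 1 h or 8 h and lowest at 4 h. With both 4 h libraries their log2 fold changes at 4 h ran from -0.28 for Pcdhb17 to -0.10 for Pcdhb16, none of which passed the test. These values depended on the library, with Pcdhb17 at -0.46 without 4 h library 1 and -0.11 without library 2. Pcdhb16 was at -0.19 and -0.015 in the same order.

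Pcdhb20 and Pcdhb3 had the lowest fitted values among beta genes at 4 h with both libraries, but not without 4 h library 2, where Pcdhb3 was at -0.46. Pcdhb20 was at 12.1 CPM in the control library, followed by 9.90 (1 h), 8.31 with 6.77 (4 h) and 9.07 (8 h). Its 4 h log2 fold change was -0.67 ± 0.30 (SE), with the lowest p of any member at 0.0667 and an adjusted p of 0.456 (Benjamini-Hochberg) in the edgeR quasi-likelihood test. Pcdhb3 was at 4.87 CPM in the control library, followed by 3.75 (1 h), 3.50 with 2.54 (4 h) and 3.71 (8 h). For both genes the control was the highest of the 5 libraries and 4 h library 2 the lowest. Pcdhb3 had a log2 fold change at 4 h of -0.67 ± 0.42 (SE, adjusted p = 0.566, Benjamini-Hochberg, edgeR quasi-likelihood test).

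The gamma genes of the A and B types alternate along the cluster. Summed, the 12 A genes had ratios to the control of 0.898 (0.843 to 0.957) and 0.892 (0.839 to 0.949) in the 4 h libraries and the 7 B genes 0.978 and 0.957, with intervals that included 1. The A genes were at 1.11 (1.05 to 1.18) in the 1 h library and 1.09 (1.02 to 1.16) in the 8 h library, and the B genes at 1.06 and 1.23 (1.12 to 1.34). Pcdhga11, the most abundant of them, was at 15.4 CPM in the control library, followed by 18.3 (1 h), 13.3 with 16.2 (4 h) and 16.7 (8 h). Its 4 h libraries lay on either side of the control, and its log2 fold change of -0.06 at 4 h became 0.07 without 4 h library 1. Pcdhga3 was at 13.8 CPM in the control library, followed by 13.5 (1 h), 12.2 with 12.0 (4 h) and 13.6 (8 h), with the 4 h libraries the lowest.

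Pcdhgb5 and Pcdhga10 were above the control in all 4 kainic acid libraries. Pcdhgb5 was at 6.13 CPM in the control library, followed by 7.34 (1 h), 8.31 with 7.46 (4 h) and 10.5 (8 h). Its log2 fold changes were 0.26 ± 0.35, 0.36 ± 0.31 and 0.77 ± 0.35 at 1 h, 4 h and 8 h, with adjusted p-values of 1.00, 0.679 and 1.00 (Benjamini-Hochberg) in the edgeR quasi-likelihood test. Pcdhga10 was at 7.08 CPM in the control library, followed by 11.04 (1 h), 8.91 with 8.20 (4 h) and 9.41 (8 h). The control was the lowest library for both, and Pcdhga10 was highest at 1 h whereas Pcdhgb5 was highest at 8 h. The log2 fold change of Pcdhga10 was 0.63 ± 0.34 (SE) at 1 h and 0.27 ± 0.29 at 4 h, with adjusted p-values of 1.00 and 0.743 (Benjamini-Hochberg) in the edgeR quasi-likelihood test.

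The 3 C-type genes of the gamma cluster were above the control in both 4 h libraries, as were 2 of the 19 alternate gamma genes. Pcdhgc5, expressed mainly in the mature brain, was at 49.0 CPM in the control library, followed by 60.9 (1 h), 70.7 with 59.5 (4 h) and 57.7 (8 h). All 4 kainic acid libraries were above the control, with 4 h library 1 the highest. Its 4 h log2 fold change was 0.41 ± 0.20 (SE), the highest of all members, with an adjusted p of 0.495 (Benjamini-Hochberg) in the edgeR quasi-likelihood test. By counting alone, ratios to the control were 1.24 (1.14 to 1.36) in the 1 h library, 1.44 (1.33 to 1.57) and 1.22 (1.11 to 1.33) in the 4 h pair, and 1.18 (1.08 to 1.29) in the 8 h library.

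Pcdhgc3, whose protein binds the Wnt pathway scaffold Axin1, was at 40.2 CPM in the control library, followed by 36.5 (1 h), 52.4 with 42.4 (4 h) and 41.1 (8 h). Only 4 h library 1 was well above the control, and its 4 h log2 fold change came to 0.24 ± 0.22 (SE, adjusted p = 0.705, Benjamini-Hochberg, edgeR quasi-likelihood test). Pcdhgc4, which is needed for the survival of interneurons, was at 9.80 CPM in the control library, followed by 11.3 (1 h), 12.4 with 10.4 (4 h) and 9.53 (8 h). It was highest in 4 h library 1 and lowest at 8 h, with a log2 fold change at 4 h of 0.22 ± 0.29.

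Both C-type genes of the alpha cluster were below the control in both 4 h libraries. Pcdhac2, which is known for the spacing of serotonergic axons, was at 37.5 CPM in the control library, followed by 35.7 (1 h), 32.8 with 34.2 (4 h) and 29.0 (8 h). All 4 kainic acid libraries were below the control and the 8 h library was the lowest, with log2 fold changes of -0.16 ± 0.20 (4 h) and -0.37 ± 0.23 (8 h, adjusted p = 0.780 and 1.00, Benjamini-Hochberg, edgeR quasi-likelihood test). Pcdhac1 was at 6.33 CPM in the control library, followed by 7.51 (1 h), 5.11 with 4.55 (4 h) and 7.36 (8 h). It followed the alternate alpha genes, with both 4 h libraries the lowest and a log2 fold change at 4 h of -0.38 ± 0.33.

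**Figure D3:**
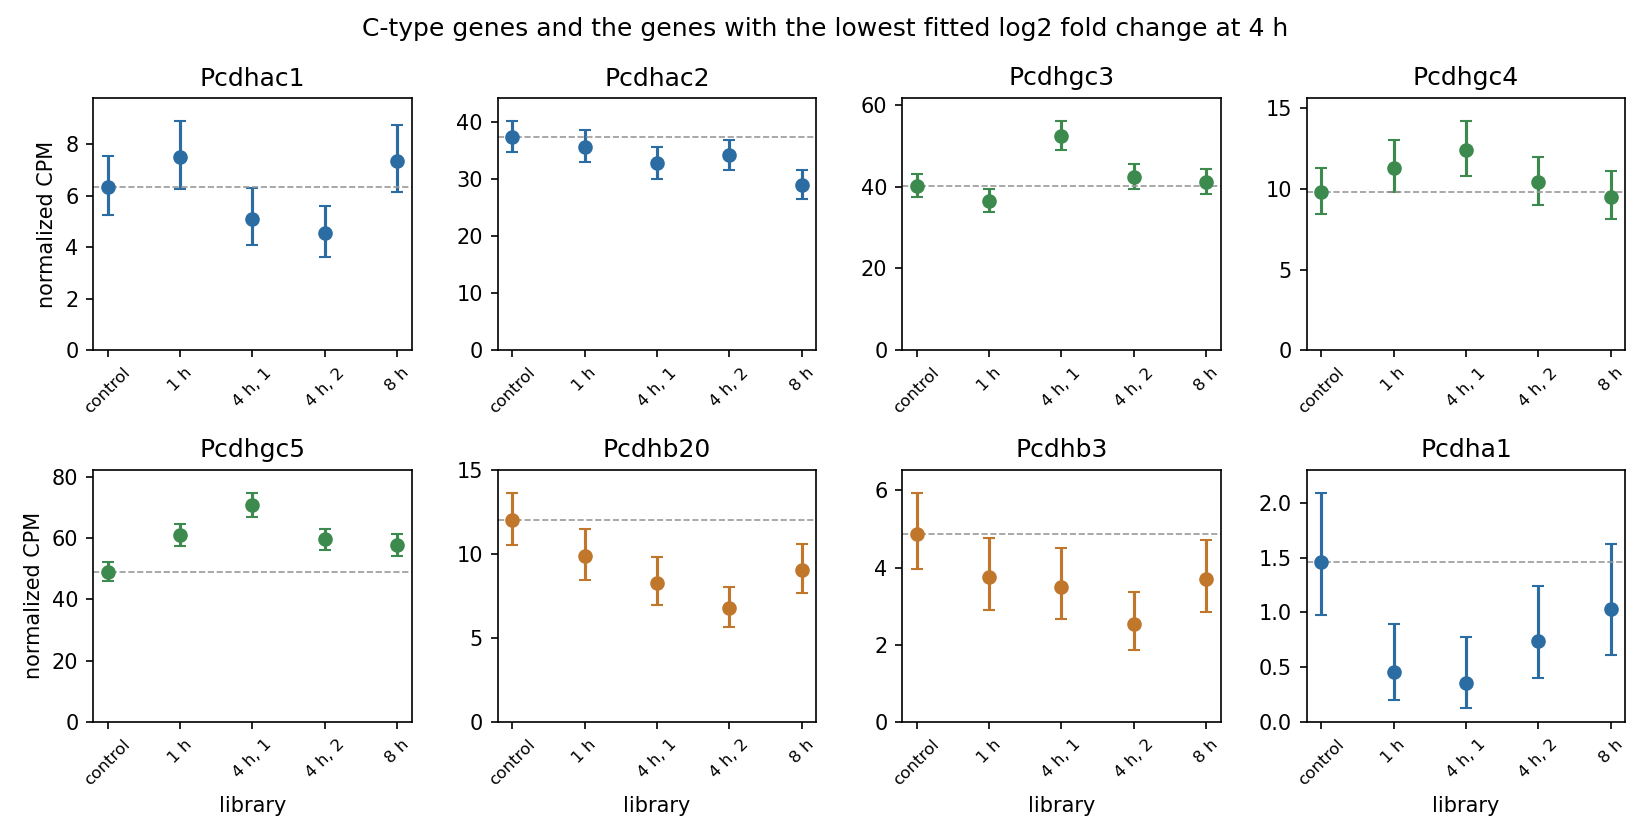
Normalized CPM in each library of the 5 C-type genes and of the 3 genes with the lowest fitted log2 fold change at 4 h (dashed line, control level; error bars, exact 95% Poisson intervals). Pcdhgc5 lies above its control level of 49.0 in all 4 kainic acid libraries, and Pcdhb20, Pcdhb3, Pcdha1 and Pcdhac2 lie below theirs.

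The share of the family's counts held by the C-type genes was larger at 4 h, and a share of this kind does not depend on library scaling. The 5 C-type genes held 26.6% (interval 25.7 to 27.4) of the family's counts in the control and 26.6% (25.7 to 27.5) at 1 h. They held 33.5% (32.5 to 34.5) and 31.7% (30.8 to 32.7) in the 4 h libraries and 25.5% (24.6 to 26.3) at 8 h. Both 4 h libraries were above the other 3, and their intervals did not overlap with those of the control.

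The difference from the control at 4 h was 6.02 percentage points, and it was 3.25 without Pcdhgc5, an alternative chosen after seeing the data. The 3 gamma C-type genes alone held 18.4%, 19.0%, 26.2%, 23.6% and 19.1% in the control library and then in order of time. Their summed level was 99.0 CPM in the control and 136 and 112 at 4 h, while the 53 other members outside the C-type had ratios to the control of 0.874 and 0.825 at 4 h. The larger 4 h share thus came with a higher level of the gamma C-type genes and a lower level of these 53 members. Beta genes held 35.5% of the family's counts in the control and 31.1% and 30.4% in 4 h libraries 1 and 2. In the same order the alternate alpha genes held 8.07%, 6.85% and 7.22%, and the alternate gamma genes 29.8%, 28.5% and 30.7%. The gamma cluster as a whole held 48.3% in the control library, followed by 49.8% (1 h), 54.7% with 54.3% (4 h) and 50.9% (8 h).

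**Figure D4:**
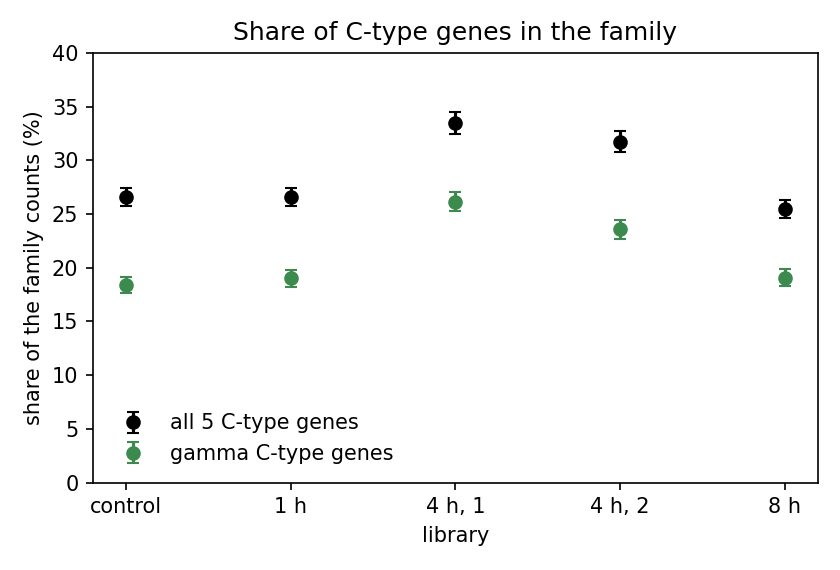
Share of the family's counts held by all 5 C-type genes (black) and by the 3 gamma C-type genes (green) in each library, with exact 95% binomial intervals. The C-type share is 33.5% and 31.7% in the 4 h libraries and between 25.5% and 26.6% in the other 3.

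Directly compared, the 4 h and 8 h levels differed for 0 members and 0% of all genes (Benjamini-Hochberg) in the edgeR quasi-likelihood test. At an unadjusted p under 0.05 the count was 1 of 56 members, against 8.73% of all genes. This member was Pcdha11 (ENSMUSG00000102206.5), higher at 8 h by a log2 fold change of 0.89 (adjusted p = 0.544, Benjamini-Hochberg, edgeR quasi-likelihood test).

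Levels of different genes were compared per kilobase of exon. With whole exon length, Pcdhgc5 had the highest mean level at 7.81 CPM per kb, followed by Pcdhgc3 at 7.73, Pcdhac2 at 5.75, Pcdhb9 at 4.14 and Pcdhb17 at 3.76. These means pool the control and kainic acid libraries. In the control Pcdhgc5 was at its lowest level and Pcdhac2 at its highest, so this order is that of the pooled means only. The median was 0.766 CPM per kb for alpha, 1.78 for beta and 1.65 for gamma. Alpha and gamma counts exclude reads that fall in the constant exons, so the length that could be counted is smaller than the whole exon length. With unshared exon length the medians were 1.59 for alpha, 1.78 for beta and 3.02 for gamma, so the order of beta and gamma depended on the length used. Of the 10 highest members by whole exon length, 7 were also among the 10 highest by unshared length.

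By unshared length the means over all libraries were highest for Pcdhgc5, Pcdhgc3 and Pcdhac2, at 12.9, 12.6 and 11.2 CPM per kb. In the control library alone their order was the reverse, with Pcdhac2 at 12.4, Pcdhgc3 at 11.9 and Pcdhgc5 at 10.6. Pcdhgc5 ranged from 10.6 to 15.4 and Pcdhgc3 from 10.8 to 15.5 over the libraries, so these neighbours in the order were not separated. The highest alternate gene, Pcdhga11, was at 6.06. The C-type genes are not alike in level, since Pcdhac1 was at 2.41 and Pcdhgc4 at 3.08, within the range of the alternate genes. The first genes of the alpha and beta clusters, Pcdha1 and Pcdhb1, had 0.324 and 0.0583.

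**Figure D5:**
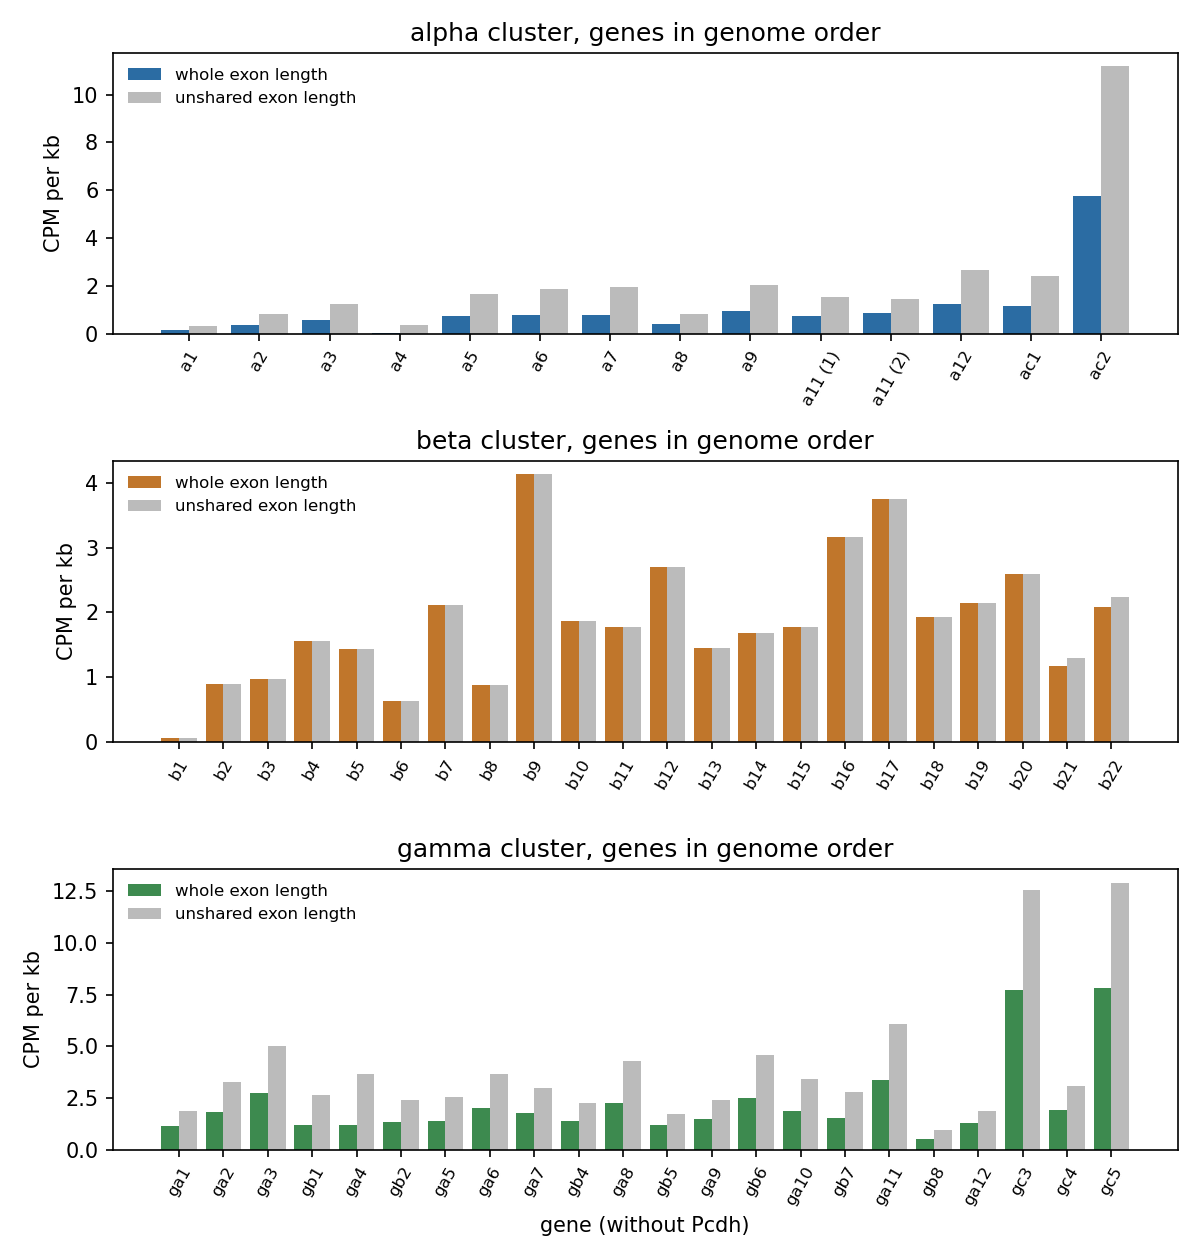
Mean normalized CPM per kb of each gene in genome order, by whole exon length (colored) and by unshared exon length (gray), with bars from 0 and a scale of its own for each cluster. The tallest bars are Pcdhac2, Pcdhgc3 and Pcdhgc5, at 11.2, 12.6 and 12.9 CPM per kb of unshared exon.

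All 58 identifiers were found in the GENCODE M21 annotation (GRCm38) on chromosome 18, plus strand. The alpha genes span positions 36930184 to 37187661, the beta genes 37264938 to 37524479 and the gamma genes 37661793 to 37841873. A read in an exon that several genes share is ambiguous and is counted for none of them. Alpha members had a median of 46.4% of their exon length unshared with other genes on the strand, gamma members 55.3% and beta members 100%. The loss therefore touched alpha and gamma and left beta almost whole.

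The loss was largest for Pcdha4, with 8.56% of its exon length unshared, and its low counts say little of its level. The genes Gm42416, Gm37013, Gm37388 and Gm38182, which lie inside the clusters with 0 unshared bases, had 0 counts in every library. Ambiguous reads over all genes made up 1.51%, 1.41%, 1.26%, 1.52% and 1.41% of the reads in the control library and then in order of time. How many of them came from the clusters was not analysed here. Read-length windows with both ends in the unshared exon were searched for unchanged copies in other genes. At most 7.10% of these windows of an alpha member, 1.14% of a beta member and 7.69% of a gamma member had such a copy. Near-identical sequence was not measured.

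Factors that act on the cluster promoters were measured alongside. Of 11 CTCF and cohesin genes, 0 passed the edgeR test at any time and 0 had an unadjusted p under 0.05 at 4 h, and their median log2 fold change at 4 h was -0.05. Ctcf, singled out for its role and after its value was seen, was at 76.9 CPM in the control library, followed by 70.4 (1 h), 86.9 with 83.3 (4 h) and 69.8 (8 h). The cohesin release factor Wapl had the largest value of the list at 4 h, with a log2 fold change of 0.49, and the loader subunit Mau2 the lowest at -0.31. Of 13 DNA methylation and silencing genes 0 passed the edgeR test and 3 had an unadjusted p under 0.05 at 4 h, where 11.6% of all genes did. DESeq2 called 1 of them, Tet2, named here after its value was seen. Tet3, an enzyme that oxidizes methylated cytosine, was at 51.3 CPM in the control library, followed by 92.5 (1 h), 481 with 213 (4 h) and 71.6 (8 h). Tet1 was at 22.3 CPM in the control and at 12.9 and 13.8 at 4 h.

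Partners of the proteins gave 0 calls with edgeR, DESeq2 and limma-voom. At 4 h 1 kinase or cytoskeleton gene and 0 shedding genes had an unadjusted edgeR p under 0.05, against 11.6% of all genes. In the list of 16 kinases and cytoskeleton partners the median log2 fold change at 4 h was 0.06, from 0.61 for Ptk2 to -0.50 for Ptk2b, both kinases that clustered protocadherins inhibit. The 8 genes of shedding and gamma-secretase had a median of -0.20 at 4 h, and the sheddase Adam10 was at 82.3 CPM in the control and 65.2 and 67.9 at 4 h.

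Pcdh8, a delta protocadherin outside the clusters that is known to be induced by activity, was at 25.0 CPM in the control library, followed by 299 (1 h), 438 with 316 (4 h) and 96.4 (8 h). Its 4 h log2 fold change was 3.91 (adjusted p = 0.0993, Benjamini-Hochberg, edgeR quasi-likelihood test), whereas no clustered member exceeded 0.41. The 10 delta protocadherins had a median log2 fold change at 4 h of 0.13. It was -0.03 for the 14 classical and type II cadherins and 0.04 for the 6 neurexins and neuroligins. Each list had 0 edgeR calls, with 3, 0 and 1 genes at an unadjusted p under 0.05 at 4 h, against 11.6% of all genes. DESeq2 called Pcdh8 at all 3 times and no other gene of these lists. The difference between these lists and the clustered members was not tested.

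The activity-induced genes were used to check the labels of the 1 h and 4 h libraries. All 9 were above the control at 1 h and at 4 h, with a median log2 fold change of 4.16 and 3.58, although 0 passed the adjusted edgeR threshold. At these times 9 and 6 had an unadjusted p under 0.05, against 2.42% and 11.6% of all genes, and DESeq2 called 2 at each time. At 8 h, 3 of the 9 were lower than the control, the median was 0.38 and 0 had an unadjusted p under 0.05 (0 DESeq2 calls), so the list does not check the 8 h label. The 4 h libraries were unequal in this respect, since the list summed to 493 CPM in the control library, followed by 6558 (1 h), 8292 with 2807 (4 h) and 630 (8 h).

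Cell type markers also moved between libraries. The 7 neuron markers, led by Snap25, summed to 5262 CPM in the control library, followed by 5468 (1 h), 5361 with 5049 (4 h) and 4698 (8 h). The 6 astrocyte markers, led by Slc1a2, summed to 3732, 3921, 4701, 4309 and 4095 CPM in the same order, and the 6 oligodendrocyte markers, led by Mbp, to 3341, 4165, 3936, 5072 and 3303. Among the neuron markers, Rbfox3, Syt1, Camk2a and Slc17a7 were below the control in both 4 h libraries (Rbfox3 at 82.0 and 82.4 beside 119 CPM), and Gad1 and Prox1 were above it. Sums of neuron markers in the 4 h libraries lay on either side of the control, while those of both glial lists lay above it, beside the lower alpha and beta sums. The 2 oligodendrocyte precursor markers summed to 98.2, 104, 96.6, 119 and 87.6 CPM, the 5 microglia markers to 168, 171, 136, 142 and 152, and the 4 endothelial markers to 116, 107, 119, 93.6 and 115. Of these lists, only the microglia markers were below the control in both 4 h libraries.

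The choroid plexus and ependyma list, led by Ttr, differed most, with sums of 3931 CPM in the control library, followed by 1659 (1 h), 31.8 with 4188 (4 h) and 3045 (8 h). These markers were thus far below the control in 4 h library 1 and near its level in 4 h library 2, and the alpha and beta sums were below the control in both. No marker of any list had 0 counts in a library. Of all marker lists, edgeR called 0 genes, while DESeq2 called Prox1 and Gfap at 4 h and Gfap at 8 h. The part of cell composition in the differences among members was not tested.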

How the data were processed

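The authors deposited a table of raw read counts per gene for each library. According to the submitters' processing notes, reads were aligned with STAR 2.5.1b to GRCm38.p4 and counted with HTSeq. The sources used here name no HTSeq version, annotation release or strand setting. The library kit kept strand. Summary lines were left out, namely reads without a feature, ambiguous reads and reads not aligned uniquely. Reads without a feature were 24.7%, 29.0%, 33.1%, 25.3% and 30.9% in the control library and then in order of time. Reads not aligned uniquely were 11.6%, 10.2%, 9.67%, 11.6% and 10.4% in the same order.

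Counts of all genes were filtered with filterByExpr, scaled by TMM and fitted with edgeR 4.0.16 in R 4.3.3 (quasi-likelihood, prior count 2, 1 residual degree of freedom from the 4 h pair, Benjamini-Hochberg adjustment over 19768 genes, threshold 0.05). The biological coefficient of variation was 0.238. Each SE is the size of the log2 fold change without a prior count, divided by the square root of the test statistic. The log2 fold change beside it used the prior count of 2, so in genes of low counts the SE is only approximate for it. Code was tested on simulated data. Exon lengths came from GENCODE M21. Other settings tried were library size alone, median-of-ratios factors, DESeq2 1.42.0, limma-voom (limma 3.58.1), no filter, at least 10 counts in every library, a prior count of 0.125, each 4 h library left out, other exon lengths and other member sets. Fits without a 4 h library used a dispersion of 0.05 and gave no test.

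Named members are the 4 most abundant of each cluster, the C-type genes, and the 3 with the highest and the 3 with the lowest log2 fold change at 4 h. From each of 15 gene lists, the most abundant gene, those with the highest and lowest log2 fold change at 4 h, and any activity-induced or marker gene could be named. Members and lists were chosen with earlier results of these data known.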

Additional observations from a re-analysis of the deposited data

How the results depend on the processing

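No paired analysis was possible because the control, 1 h and 8 h groups have 1 library each. The number of genes called depended on the tool and the filter. At 1 h, 4 h and 8 h, against 0, 1 and 0 genes with edgeR and TMM, 57, 237 and 22 were called with library size alone (189 higher and 48 lower at 4 h), 56, 238 and 33 with DESeq2, and 285, 1300 and 279 with every gene that had a count. With median-of-ratios factors and with limma-voom 0 were called at each time, and with at least 10 counts in every library 1, 0 and 0. Clustered protocadherins were called 0 times in all of these, with adjusted p-values of at least 0.332 at 4 h (library size alone). Of the 55 to 58 members in each fit, 45 to 49 were lower at 4 h. The 49, of 56, came with library size alone, where the median log2 fold change of all genes was -0.11. The causes of these differences in calls were not tested.

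The ratios of cluster sums to the control moved with library size alone to 0.771 for alpha and 0.735 for beta at 4 h, to 0.982 for beta at 1 h, and to 1.04 at 1 h and 0.958 at 4 h for gamma. For alpha at 4 h the median-of-ratios factors gave 0.844, and without Pcdhac2 the ratio was 0.800 at 4 h and 1.21 at 8 h. Leaving out either 4 h library gave 0.839 to 0.843 for alpha, 0.759 to 0.846 for beta and 0.997 to 1.09 for gamma. Leaving out members with little unshared exon, an alternative chosen after seeing the data, removed Pcdha4 only and gave 0.840 for alpha at 4 h. Pcdha4 had at most 7 counts in a library, so the ratio could hardly change.

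The C-type share minus that of the control, in percentage points, was also computed without single members, likewise chosen after seeing the data. Without Pcdhgc5 it was -1.39, 3.25 and -2.18 at 1 h, 4 h and 8 h, without Pcdhgc3 0.93 at 1 h, and without Pcdhac2 0.37 at 8 h. Of 411 alternative values of the log2 fold changes of named members, 408 kept their sign, a weak check since most refit the same 5 libraries. The exceptions were Pcdhb16 at 1 h, at 0.07 and -0.0045 with library size alone, Pcdhb14 at 8 h, at 0.01 and -0.0014 with no filter, and Pcdhga11 at 4 h, at -0.06 with both 4 h libraries, 0.0734 without library 1 and -0.21 without library 2. Depth limits Pcdha1, Pcdha4 and Pcdhb1, which had at most 29, 7 and 5 counts.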

Other observations

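Other genes inside the locus were measured as well, and those named here were chosen after their values were seen. The antisense gene BC037039, which lies opposite Pcdhgc3, had 5 counts in the control library, followed by 8 (1 h), 26 with 37 (4 h) and 25 (8 h). All 3 later libraries were above the control and the 1 h library, with a log2 fold change at 4 h of 2.37 ± 0.69 (SE, adjusted p = 0.317, Benjamini-Hochberg, edgeR quasi-likelihood test). The 2613 exon bases of Pcdhga10 that are unshared on its own strand all lie under the antisense gene Gm26672 where exons of both strands are joined. Pcdhga10 still had 141, 194, 150, 155 and 165 counts, so overlap with the opposite strand did not remove all of its reads.

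Taf7, a general transcription factor gene between the beta and gamma clusters, was at 11.9 CPM in the control library, followed by 23.7 (1 h), 17.8 with 12.2 (4 h) and 9.64 (8 h). It was highest at 1 h and had returned to the control level in 4 h library 2, a time course that none of the summed clusters showed. The alpha pseudogene Gm36858 had 30 counts in the control library, followed by 30 (1 h), 28 with 18 (4 h) and 54 (8 h).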
